A study of Mus musculus with 2 samples.

Results

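To ask where Msl1 and Nsl1 lie at the genes of the Wnt pathway in mouse embryonic stem cells (mESCs), the reads of 2 ChIP-seq libraries were counted around the transcription start sites (TSSs) of 40 named Wnt pathway genes, out of 22359 protein-coding genes of the mm9 annotation. The genes were listed by name, with earlier results of these data already known. They were 14 Wnt ligands, 12 receptors (10 Frizzled genes, Lrp5 and Lrp6), 12 intracellular components, the secreted antagonist Dkk1, and Tcf3. Tcf3 is in none of these roles but is counted among the 40. Msl1 and Nsl1 are subunits of the MSL and NSL complexes, both of which contain the histone acetyltransferase Mof, and the study set out to compare their binding across the genome. Both libraries came from wild-type male E14 mESCs of 129P2/OlaHsd background at passage 26, which were grown with leukemia inhibiting factor on gelatine and feeder cells and then for 1 passage without feeders. No treatment, knockdown or knockout was applied to either. Chromatin was cross-linked with 1% formaldehyde and precipitated with the rabbit polyclonal anti-Msl1 (3208) or anti-Nsl1 (3130) antibody. Each antibody had 1 library, and each library was prepared with another kit, so antibody, kit and read length cannot be told apart.

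Wnt ligands are secreted lipid-modified proteins that bind a Frizzled receptor together with Lrp5 or Lrp6. The receptors recruit Dishevelled proteins and Axin, which keeps the complex of Axin, Apc and Gsk3 from marking beta-catenin for degradation, so that beta-catenin can enter the nucleus and act with factors of the Lef and Tcf family. In mESCs this pathway is known to support self-renewal, and many of its ligands and receptors are developmental genes whose promoters lie in CpG islands.

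For Msl1, 23888517 reads with a length of 50 bases were deposited, and for Nsl1 26084098 with a length of 36 bases. After 1 read was kept per position and strand, 19483142 and 24883001 nuclear reads were left. Each was placed at its fragment's centre, counted in windows along the direction of the gene, and divided by the local level. The local level is the density of the same library's reads on either side of the TSS at a distance between 5 kb and 50 kb, and the value obtained is called the ratio below. A ratio of 1 means no more reads than nearby. Among the members the windows within 500 bases of the TSS held 9 to 68 Msl1 reads and 9 to 109 Nsl1 reads. The 95% confidence intervals in parentheses are exact binomial intervals for single genes and order-statistic intervals for medians. They cover counting error, or the spread between genes, and not the spread between libraries, and no test between the antibodies was possible. No TSS of another protein-coding gene lay within 2 kb of a member's TSS, although several members have other annotated starts of their own within that distance. The local levels of Wnt1 and Wnt10b, whose TSSs lie 11.7 kb apart, and of Wnt6 and Wnt10a, 19.6 kb apart, overlap and share reads.

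The promoters of the members were rich in CG. Within 500 bases of the TSS their median GC content was 65.2% against 55.3% over all 21738 protein-coding TSSs with a usable local level, and the median of observed over expected CpG was 0.79 against 0.57. In the 250 bases before the TSS, the members held a median of 22 CpG dinucleotides against 9 for all 22354 protein-coding promoters of known sequence. The promoters printed here are those with the highest Nsl1 ratio (Dvl2), the highest and the lowest number of Msl1 reads per Nsl1 read (Lef1 and Gsk3a), and the lowest sum of both ratios (Dvl1). Each is the 250 bases before the TSS on mm9, read 5′ to 3′ in the direction of the gene, with CpG dinucleotides in capitals.
Dvl2, chr11:69813847-69814096, plus strand: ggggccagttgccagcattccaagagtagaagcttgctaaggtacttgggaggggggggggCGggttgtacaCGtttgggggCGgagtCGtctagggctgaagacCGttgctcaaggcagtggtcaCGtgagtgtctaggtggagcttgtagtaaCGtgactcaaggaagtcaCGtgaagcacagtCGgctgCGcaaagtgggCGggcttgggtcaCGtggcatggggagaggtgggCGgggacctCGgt
Lef1, chr3:130813139-130813388, plus strand: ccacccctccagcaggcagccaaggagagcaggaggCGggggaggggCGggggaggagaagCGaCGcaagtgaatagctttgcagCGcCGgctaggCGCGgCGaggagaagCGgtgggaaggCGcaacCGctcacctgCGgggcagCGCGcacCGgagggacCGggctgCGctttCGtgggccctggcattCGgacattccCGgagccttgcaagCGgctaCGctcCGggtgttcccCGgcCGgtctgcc
Gsk3a, chr7:26022871-26023120, minus strand: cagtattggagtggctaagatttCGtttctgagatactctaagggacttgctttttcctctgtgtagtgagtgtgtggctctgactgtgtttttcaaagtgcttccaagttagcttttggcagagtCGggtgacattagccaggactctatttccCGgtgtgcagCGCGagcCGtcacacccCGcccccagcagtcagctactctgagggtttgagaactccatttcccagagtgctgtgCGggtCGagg
Dvl1, chr4:155221261-155221510, plus strand: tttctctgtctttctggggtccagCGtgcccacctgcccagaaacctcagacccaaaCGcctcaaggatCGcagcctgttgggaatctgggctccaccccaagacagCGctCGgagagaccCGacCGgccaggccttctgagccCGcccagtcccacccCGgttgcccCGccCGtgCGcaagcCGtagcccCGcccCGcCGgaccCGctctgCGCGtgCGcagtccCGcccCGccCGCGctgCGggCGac
These promoters held 14 CpG at Dvl2, 26 at Lef1, 9 at Gsk3a and 26 at Dvl1. The GC box GGGCGG, searched on both strands as were all motifs here, was present in all 4 of them and in 30 of the 40 members, 75% against 41% of all promoters. It contains CG, so it counts in part the same bases as the CpG number. The E box CACGTG was found 3 times at Dvl2, starting at positions -126, -79 and -36 from the TSS. This E box was in 3 members, Dvl2, Fzd3 and Lrp5 (7.5% against 6.56% of all promoters). Of all promoters 0.0671% held it 3 times or more, a number looked up after the Dvl2 sequence was seen. The core letters CTTTGAT that Lef and Tcf factors bind were found in 3 members, Wnt5b, Wnt8a and Wnt11, which is 7.5% against 2.89% of all promoters. The TATA box TATAAA was in 5 members (12.5% against 12.3%), the CCAAT box in 14 (35% against 34.8%), the ETS core CCGGAAG in 3 (7.5% against 8.45%) and the letters TGCGCATG of the NRF1 motif in 1 (2.5% against 2.08%). These are matches of letters and no binding was measured at them.

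Msl1 was enriched at the TSSs of 11 of the 40 members, counted as at least 3 times the local level within 500 bases, and 23.7% of all protein-coding TSSs reached this level, or 44.7% of the 9978 TSSs of high CpG content, which have at least 50% GC and 0.6 of the expected CpG within 500 bases. The median Msl1 ratio of the members was 2.43 (2.24 to 2.64) and that of all TSSs was 1.87. Ligands and receptors together had a median of 2.52 (2.24 to 3.07), with 8 of 26 at 3 times or more, and the intracellular components 2.03 (1.38 to 2.58), with 1 of 12, so the intervals of both medians overlapped. For Nsl1, 5 of the 40 members reached 3 times the local level within 500 bases, where 24.3% of all TSSs and 43.3% of those of high CpG content did. The median Nsl1 ratio was 1.60 (1.35 to 2.14) for the members and 1.73 for all TSSs. It was 1.10 (0.838 to 1.55) for the ligands, none of which reached 3, 2.15 (1.58 to 3.18) for the receptors and 1.94 (1.24 to 2.97) for the intracellular components. The intervals of the Nsl1 medians of ligands and receptors were barely apart, and they overlapped with all reads kept, with narrower windows, with other local levels and with a shift of 100 bases, and touched with the genome level. With the mean level of the genome as background in place of the local level, 27 members reached 3 times in Msl1, against 43.1% of all TSSs, and 11 in Nsl1, against 33.2%. The medians of all TSSs were then 2.50 and 2.16. Both antibodies reached 3 times the local level at Fzd6 and Fzd8 alone, Msl1 without Nsl1 at 9 members, Nsl1 without Msl1 at Fzd3, Dvl2 and Axin1, and neither at 26. Of all TSSs 11.8% reached it in both, 11.9% in Msl1 alone, 12.5% in Nsl1 alone and 63.8% in neither. Which members were called depended on the window. With 250 bases on each side, Fzd3 reached 3 times in both. In Msl1, Wnt7b, Fzd4, Fzd10, Tcf7 and Tcf3 then fell below 3, and Wnt5a, Fzd2, Fzd3 and Lef1 reached it. In Nsl1, Axin1 fell below 3, and Fzd9, Dvl3 and Apc reached it. Across the 40 members, the Spearman coefficient between the Msl1 and the Nsl1 ratio was 0.13 and Pearson's r 0.44, against 0.62 and 0.51 across all 21738 TSSs, with genes as points that share the same 2 libraries. The members' GC content within 500 bases started at 52.8% and that of all TSSs at 26.6%, so this compares unlike ranges. No coefficient was computed for TSSs of like base composition. Pearson's r of the members includes Fzd8, at 16.3 and 4.56.

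Base composition moved with these values. Among all TSSs with a GC content of 60% to 70%, which is where 25 of the members lay, the median ratio within 500 bases was 2.91 for Msl1 and 2.31 for Nsl1, and the 25 members had 2.43 and 1.55. Among TSSs with a GC content of 30% to 50%, where no member lay, it was 1.09 and 1.17. The 8 members above 70% had 2.15 and 1.30 against 2.74 and 1.69 for all TSSs of that class, and the 7 members from 50% to 60% had 2.58 and 1.89 against 1.95 and 2.09. The Msl1 median of the members was thus below that of TSSs of like GC content in 2 of the 3 classes, although it was above that of all TSSs, and the Nsl1 median was below in all 3. The part of GC content in the difference between members and all TSSs was not tested.

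**Figure D1:**
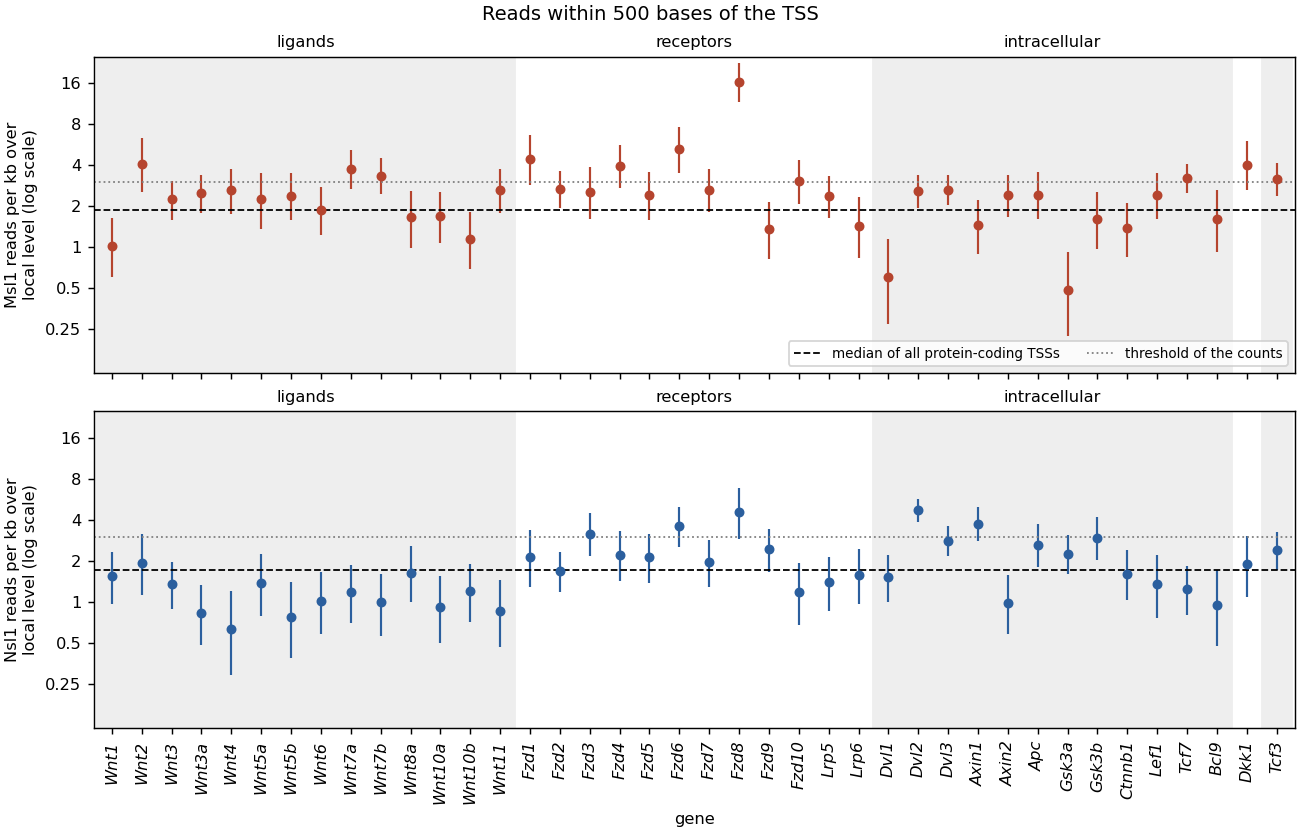
Reads within 500 bases of the TSS over the local level for the 40 genes, by role, with Msl1 above and Nsl1 below on a log scale; points are the single libraries, bars their 95% counting intervals, the dashed line the median of all protein-coding TSSs (1.87 and 1.73) and the dotted line the level of 3 used for the counts. Fzd8 stands highest in Msl1 at 16.3 and Dvl2 highest in Nsl1 at 4.73, and the 14 ligands lie between 0.639 and 1.95 in Nsl1.

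At the ligand genes, Msl1 ratios ran from 1.03 to 4.10 and Nsl1 ratios from 0.639 to 1.95. The highest Msl1 ratio was at Wnt2, with 22 Msl1 reads, 4.10 times the local level (2.54 to 6.28), and 17 Nsl1 reads, 1.95 times (1.13 to 3.14). Wnt7a held 40 Msl1 reads, 3.77 times (2.67 to 5.17), and 18 Nsl1 reads, 1.18 times (0.699 to 1.88). Wnt7b held 46 Msl1 reads, 3.36 times (2.45 to 4.51), and 16 Nsl1 reads, 0.995 times (0.567 to 1.62). The local level of Wnt2 was the lowest among the ligands, 5.37 Msl1 reads per kb, and with the genome level as background its Msl1 value was 2.89, below those of Wnt7b (6.04), Wnt3a (5.52), Wnt7a (5.25) and Wnt3 (5.12). Wnt2, Wnt7a and Wnt7b were the ligands at 3 times the local level or more in Msl1, and Wnt7a and Wnt7b, a pair of closely related ligands known from the developing limb, lung and nervous system, had Nsl1 near the local level. At other Wnt7b starts, 1092 and 3751 bases into the gene, the Msl1 ratio was 2.46 and 1.73. Wnt4, a ligand required for kidney and female reproductive tract development, held 31 Msl1 reads, 2.61 times (1.76 to 3.73), and 9 Nsl1 reads, 0.639 times (0.292 to 1.22). As a quotient of the ratios, this was the widest split among the ligands in this window. With windows of 250 bases on each side the ratios of Wnt4 were 0.674 and 0.426, and those of Wnt7a 3.95 and 0.657, so the rank depends on the window. Wnt11 held 31 Msl1 reads, 2.62 times, and 14 Nsl1 reads, 0.867 times. Wnt3a, the ligand commonly added to stem cell cultures, held 42 Msl1 reads, 2.49 times (1.78 to 3.38), and 17 Nsl1 reads, 0.838 times (0.487 to 1.35). At Wnt4, Wnt11 and Wnt3a the Nsl1 ratios within 500 bases were below 1 while the Msl1 intervals lay above it. The same held for Wnt5b, Wnt7b and Wnt10a. The Nsl1 intervals of all these ligands included 1, so no depletion of Nsl1 can be read from them.

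Wnt5b held 28 Msl1 reads, 2.40 times, and 11 Nsl1 reads, 0.785 times the local level. Wnt5a, a ligand known mainly for signalling without beta-catenin, held 20 Msl1 reads, 2.24 times, and 16 Nsl1 reads, 1.39 times. Wnt3, which is needed for the primitive streak, held 39 Msl1 reads, 2.24 times (1.59 to 3.08), and 27 Nsl1 reads, 1.35 times (0.889 to 1.98). Wnt5b has 2 other annotated starts further upstream, at which the Msl1 ratios were 3.05 and 0.449, so that its value depends on the start. Wnt6 held 26 Msl1 and 16 Nsl1 reads, at ratios of 1.88 and 1.02. Its neighbour Wnt10a held 24 and 14 reads, at 1.70 and 0.919. Wnt8a held 19 and 20 reads, at 1.66 and 1.65. These members came close to the median of all TSSs in Msl1. Wnt10b held 19 Msl1 and 18 Nsl1 reads, at ratios of 1.16 (0.696 to 1.82) and 1.2 (0.710 to 1.91). Wnt1, the founding vertebrate member of the family and the neighbour of Wnt10b, held 18 and 23 reads, at 1.03 (0.610 to 1.64) and 1.55 (0.978 to 2.33). Wnt1 and Wnt10b were thus the ligands with the lowest Msl1 ratios, and neither library exceeded the local level there beyond counting error. Their Msl1 local levels were high, 17.5 and 16.4 reads per kb against a median of 12.8 for the ligands. Wnt2 held 22 Msl1 reads at a local level of 5.37, so the low ratios of Wnt1 and Wnt10b are relative to this background.

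At the receptors, the highest Msl1 ratio of all members was that of Fzd8, with 45 Msl1 reads, 16.3 times the local level (11.6 to 22.5), and 24 Nsl1 reads, 4.56 times (2.89 to 6.86). Its TSS is at position 9212854 of chromosome 18 on the plus strand. The number of Msl1 reads at Fzd8 was not the highest, since Tcf7 held 68, but its local level was the lowest among the members in both libraries, 2.76 Msl1 and 5.27 Nsl1 reads per kb against medians of 12.2 and 14.0. With the mean level of the whole genome in place of the local level, its values were 5.91 for Msl1 and 2.47 for Nsl1, and those of Dvl2 were 7.09 and 11.2. Fzd6 followed with 30 Msl1 reads, 5.25 times (3.51 to 7.59), and 38 Nsl1 reads, 3.59 times (2.53 to 4.97). Fzd1 held 25 Msl1 reads, 4.47 times (2.87 to 6.68), and 19 Nsl1 reads, 2.15 times (1.29 to 3.39). Fzd4, the receptor that also binds the non-Wnt ligand Norrin, held 33 Msl1 reads, 3.98 times (2.72 to 5.63), and 25 Nsl1 reads, 2.23 times (1.44 to 3.31). In these 4 Frizzled genes the intervals of both libraries lay above 1, as they also did at Fzd2, Fzd3, Fzd5 and Fzd7. Fzd10 was split instead, with 31 Msl1 reads, 3.07 times (2.07 to 4.38), and 16 Nsl1 reads, 1.2 times (0.681 to 1.95). With windows of 250 bases on each side the Msl1 ratios of Fzd4 and Fzd10 were 1.69 and 1.98. The local levels of Fzd6 and Fzd1 were low as well, 5.71 and 5.59 Msl1 reads per kb. With the genome level as background their Msl1 values were 3.94 and 3.28, below those of Fzd2 (5.52), Lrp5 (4.46), Fzd4 and Fzd7 (4.33 each) and Fzd10 (4.07), so the order of the receptors depends on the background.

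The remaining receptors stayed below 3 times the local level in Msl1. Fzd2 held 42 Msl1 and 36 Nsl1 reads, at ratios of 2.69 and 1.69. Fzd7, the most studied Frizzled of pluripotent cells, held 33 and 27 reads, at 2.64 (1.8 to 3.72) and 1.96 (1.29 to 2.87). Fzd3, which acts mainly in planar cell polarity, held 23 and 34 reads, at 2.55 (1.61 to 3.86) and 3.18 (2.19 to 4.48). Fzd3 was the Frizzled gene at 3 times or more in Nsl1 without being so in Msl1. Fzd5 held 27 Msl1 and 26 Nsl1 reads, at 2.42 and 2.14. Fzd9 held 19 and 32 reads, at 1.37 (0.823 to 2.15) and 2.44 (1.66 to 3.46). Of the co-receptors, Lrp5 held 34 and 21 reads, at 2.37 and 1.40, and Lrp6, the one needed more broadly in the embryo, held 17 and 20 reads, at 1.44 and 1.58. The Nsl1 ratios of both co-receptors thus lay below those of 9 of the 10 Frizzled genes, Fzd10 being the exception, but their intervals were separate only from those of Fzd6 and Fzd8 for both, and from that of Fzd3 for Lrp5.

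Of the intracellular components, the Dishevelled genes differed among themselves. Dvl2, with its TSS at position 69814097 of chromosome 11 on the plus strand, held 54 Msl1 reads, 2.58 times the local level (1.93 to 3.38), and 109 Nsl1 reads, 4.73 times (3.86 to 5.73), the highest Nsl1 count and ratio of all members. Dvl3 held 65 Msl1 reads, 2.64 times (2.03 to 3.38), and 63 Nsl1 reads, 2.83 times (2.17 to 3.64). Dvl1 held 9 Msl1 reads, 0.602 times (0.275 to 1.15), and 27 Nsl1 reads, 1.53 times (1.00 to 2.23), the lowest sum of both ratios. In Msl1, the interval of Dvl1 did not overlap those of Dvl2 and Dvl3. Along Dvl2 the libraries took turns: in the 500 bases before the TSS there were 73 Nsl1 reads, 6.33 times the local level, and 7 Msl1 reads, 0.668 times. In the 500 bases after the TSS there were 36 Nsl1 reads, 3.12 times, and 47 Msl1 reads, 4.49 times. This order was not particular to Dvl2. Before and after the TSS, Axin1 held 31 and 20 Nsl1 reads and 4 and 17 Msl1 reads. Tcf3 held 32 and 10 Nsl1 reads and 7 and 48 Msl1 reads. Neither promoter held the E box. Other members differed, such as Gsk3a with 14 and 25 Nsl1 reads.

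Of the genes of the destruction complex, Axin1, its scaffold, held 21 Msl1 reads, 1.46 times the local level (0.898 to 2.24), and 51 Nsl1 reads, 3.77 times (2.79 to 4.98). Its paralog Axin2, a direct target of the pathway that is widely used as a readout of it, held 34 Msl1 reads, 2.43 times (1.67 to 3.41), and 18 Nsl1 reads, 0.990 times (0.585 to 1.57). The intervals of the paralogs were thus apart in Nsl1 and overlapped in Msl1. Apc, the tumour suppressor of the complex, held 28 Msl1 and 33 Nsl1 reads, at 2.43 (1.61 to 3.54) and 2.63 (1.8 to 3.72). The kinase gene Gsk3a held 9 Msl1 reads, 0.488 times (0.223 to 0.928), the lowest Msl1 ratio of all members, and 39 Nsl1 reads, 2.27 times (1.60 to 3.11). Its paralog Gsk3b held 19 Msl1 reads, 1.61 times (0.966 to 2.53), and 34 Nsl1 reads, 2.97 times (2.05 to 4.18). At another Axin1 start 262 bases into the gene the Nsl1 ratio was 2.66. At Gsk3a the Nsl1 interval lay above the local level. The Msl1 ratio of Gsk3a rests on 9 reads. It was 0.562 with a local level from 10 to 100 kb, 0.614 with a local level without promoters and 0.108 with windows of 250 bases on each side. With the genome level it was 1.18, so that a depletion cannot be read from it apart from the choice of background.

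Of the nuclear effectors, Ctnnb1, the gene of beta-catenin, held 21 Msl1 reads, 1.38 times (0.854 to 2.13), and 24 Nsl1 reads, 1.61 times (1.03 to 2.41). Lef1 held 29 Msl1 reads, 2.43 times (1.62 to 3.52), and 16 Nsl1 reads, 1.35 times (0.771 to 2.21). Tcf7, also called Tcf1, held 68 Msl1 reads, 3.22 times (2.49 to 4.10), and 25 Nsl1 reads, 1.24 times (0.802 to 1.84). Tcf7 had the largest Msl1 count of all members and was the intracellular component at 3 times or more, but at its 3 other annotated starts the Msl1 ratio was 2.37, 1.97 and 2.11, so that this call depends on the start. The count of 1 in 12 does as well, since at other annotated starts the Msl1 ratio reached 3.01 at Dvl3, 3.89 at Gsk3b and 4.64 at Axin2. Bcl9, a co-activator of beta-catenin, held 16 and 11 reads within 500 bases, at 1.62 (0.924 to 2.65) and 0.952 (0.474 to 1.71). Reads of both libraries lay further upstream. From 500 bases to 2 kb before its TSS the ratios of Bcl9 were 2.03 (1.36 to 2.92) for Msl1 and 2.02 (1.40 to 2.83) for Nsl1. Both were highest from -1000 to -500 bases, with 18 Msl1 reads, 3.65 times, and 19 Nsl1 reads, 3.29 times. Dkk1, the secreted antagonist that binds Lrp5 and Lrp6, held 26 Msl1 reads, 4.04 times (2.62 to 5.98), and 17 Nsl1 reads, 1.89 times (1.10 to 3.05). The annotated gene Tcf3 on chromosome 10 encodes the E2A factor, which is not a Wnt effector. It is 1 of the 11 members at 3 times within 500 bases in Msl1, of the 27 at 2 times downstream and of the 20 with the most Msl1 reads per Nsl1 read. It held 55 Msl1 reads, 3.15 times (2.36 to 4.12), and 42 Nsl1 reads, 2.40 times (1.72 to 3.26). The Wnt repressor that stem cell papers call Tcf3 is annotated as Tcf7l1 on chromosome 6, and it held 39 Msl1 reads, 2.32 times (1.65 to 3.19), and 32 Nsl1 reads, 2.12 times (1.44 to 3.01), at its most upstream start. At the Tcf7l1 start 298 bases further into the gene the ratios were 3.53 for Msl1 and 1.52 for Nsl1.

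From 500 to 2000 bases downstream of the TSS, the interval of the Msl1 ratio lay above the local level at 32 of the 40 members, against 46.4% of all TSSs, and that of the Nsl1 ratio at 6, against 18%. Msl1 reached at least 2 times the local level there at 27 of the 40 members, against 32.2% of all TSSs and 55.4% of those of high CpG content, and Nsl1 at 2 of 40, Fzd4 and Fzd8, against 4.86% of all TSSs and 4.78% of those of high CpG content. With the genome level as background, 36 members reached 2 times in Msl1, against 50.3% of all TSSs, and 9 in Nsl1, against 17%, and Fzd8 was then at 1.99 in Nsl1. The median Msl1 ratio downstream was 2.34 (2.14 to 2.73) for the members and 1.51 for all TSSs, and the median Nsl1 ratio 1.14 (1.09 to 1.31) and 1.15. By role, Msl1 had a median of 1.84 (1.13 to 2.39) at the ligands, 3.50 (2.32 to 5.70) at the receptors and 2.48 (1.58 to 3.30) at the intracellular components. Of the receptors 11 of 12 reached 2 times, Fzd9 being the exception, of the ligands 7 of 14 and of the intracellular components 7 of 12. Ligands and receptors together had 2.31 (1.78 to 2.96), an interval that overlapped that of the intracellular components. For Nsl1 the medians were 1.02 at the ligands, 1.34 at the receptors and 1.13 at the intracellular components. Downstream reads were denser than those within 500 bases of the TSS in Msl1 at 22 of 40 members (55%, against 35.8% of all TSSs) and in Nsl1 at 6 of 40 (15%, against 24.3%). Among the receptors this held for 9 of 12 genes in Msl1 and for none of 12 in Nsl1. Among the intracellular components it held for 9 of 12 and 1 of 12, and among the ligands for 4 of 14 and 5 of 14.

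The downstream Msl1 ratios of the Frizzled genes had a median of 4.10 (2.22 to 6.82), but their rank depended on the local level. With the genome level as background their median was 4.07, below the 4.82 of the intracellular components, and Fzd8 was at 4.55, while Fzd5 and Fzd7 were the highest members at 9.98 and 9.37, followed by Axin2 at 7.97. At Fzd5 there were 114 Msl1 reads, 6.82 times the local level (5.57 to 8.28), and 26 Nsl1 reads, 1.43 times (0.927 to 2.10). At Fzd7 there were 107 Msl1 reads, 5.70 times (4.63 to 6.95), and 36 Nsl1 reads, 1.74 times (1.21 to 2.42). At Fzd8 there were 52 Msl1 reads, 12.6 times (9.14 to 17.0), and 29 Nsl1 reads, 3.67 times (2.43 to 5.34). In Fzd5 and Fzd7 the downstream window was denser in Msl1 than the TSS itself, whereas the 500 bases before the TSS held 2 and 4 Msl1 reads, 0.359 and 0.639 times the local level, and 11 Nsl1 reads each. Msl1 reads also continued from 2 kb to 5 kb downstream, where the ratio was 3.32 (2.70 to 4.04) at Fzd5, 3.11 (2.55 to 3.77) at Fzd7 and 7.26 (5.38 to 9.66) at Fzd8. The median of all TSSs there was 1.11. The genes of Fzd7 and Fzd8 end inside this stretch, with 4801 and 3346 bases from first to last base. Fzd1 held 41 Msl1 and 18 Nsl1 reads downstream, at 4.89 (3.47 to 6.73) and 1.36 (0.802 to 2.16). Fzd10 held 66 and 23, at 4.35 (3.34 to 5.59) and 1.15 (0.723 to 1.73). Fzd2 held 90 and 35, at 3.84 (3.07 to 4.76) and 1.09 (0.760 to 1.53). Fzd1, Fzd2, Fzd7, Fzd8 and Fzd10 are 5 of the 6 Frizzled genes with a single annotated exon, and the other of these 6, Fzd9, held 37 and 27 reads, at 1.78 (1.25 to 2.47) and 1.37 (0.90 to 2.01). The Frizzled genes with introns besides Fzd5 had Msl1 ratios of 2.96 at Fzd3, 2.73 at Fzd4 and 2.22 at Fzd6. Fzd3 held 40 Msl1 reads, close to the 41 at Fzd1, at local levels of 9.01 and 5.59 reads per kb. Downstream GC content ran from 58.7% to 65.9% at the single-exon genes and was 62.2% at Fzd5. It was 46.2% at Fzd3, 45.5% at Fzd4 and 39.5% at Fzd6, and a part of exon number was not tested.

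**Figure D2:**
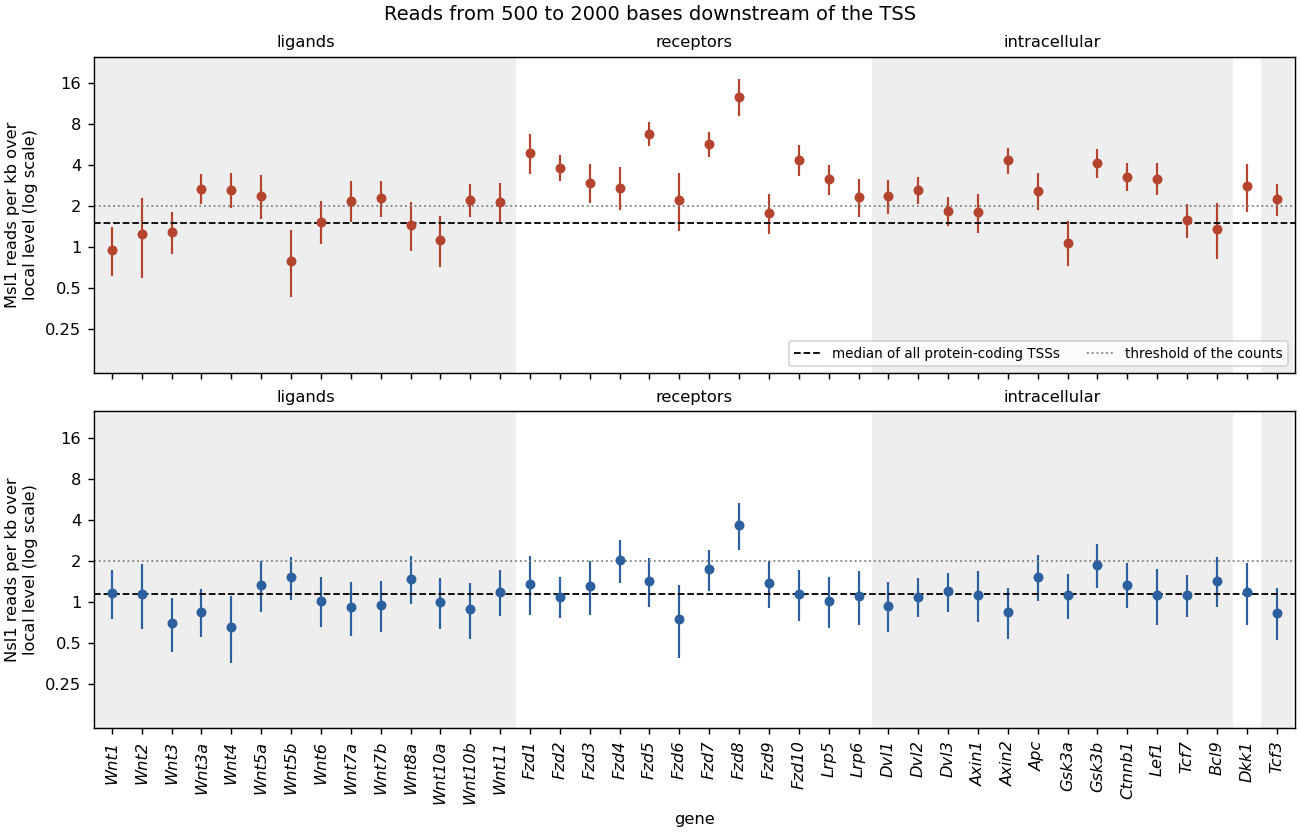
Reads from 500 to 2000 bases downstream of the TSS over the local level for the 40 genes, by role, with Msl1 above and Nsl1 below on a log scale; points are the single libraries, bars their 95% counting intervals, the dashed line the median of all protein-coding TSSs (1.51 and 1.15) and the dotted line the level of 2 used for the counts. In Msl1 11 of the 12 receptors lie at 2 or more, and in Nsl1 Fzd4 at 2.02 and Fzd8 at 3.67 do.

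Several intracellular components had a higher Msl1 ratio downstream than within 500 bases of the TSS. At Axin2 the downstream window held 91 Msl1 reads, 4.33 times the local level (3.46 to 5.36), and 23 Nsl1 reads, 0.844 times (0.533 to 1.27). At Gsk3b it held 73 Msl1 reads, 4.13 times (3.21 to 5.24), and 32 Nsl1 reads, 1.86 times (1.27 to 2.65). At Ctnnb1 it held 75 Msl1 reads, 3.30 times (2.58 to 4.16), and 30 Nsl1 reads, 1.34 times (0.903 to 1.93). At all 3 genes the downstream Msl1 ratio exceeded that within 500 bases, with intervals that did not overlap, by a wide margin at Gsk3b and Ctnnb1 and barely at Axin2. The Ctnnb1 value depends on the start, since at its most upstream annotated start the Msl1 ratio was 0.647 downstream and 0.425 within 500 bases. Lef1 held 57 Msl1 and 20 Nsl1 reads downstream, at 3.19 and 1.13. Dvl1, whose Msl1 ratio was 0.602 at the TSS, held 53 Msl1 reads, 2.36 times (1.76 to 3.11), and 25 Nsl1 reads, 0.942 times. Dvl2 held 83 and 38 reads, at 2.64 and 1.10, and Apc 45 and 29, at 2.61 and 1.54. These 7 genes were the intracellular components at 2 times or more in Msl1. Below it were Dvl3 with 1.84, Axin1 with 1.8, Tcf7 with 1.58, Bcl9 with 1.35 and Gsk3a with 1.08, for which the Nsl1 ratios were 1.2, 1.13, 1.13, 1.44 and 1.12. At Tcf7 the Msl1 ratio was thus lower downstream than at the TSS, and at Gsk3a it did not exceed the local level beyond counting error in either window. Axin2 has annotated starts up to 2832 bases into the gene and Gsk3b another at 1287 bases, so that part of their downstream window lies around other starts.

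At the ligands the downstream Msl1 ratio was highest at Wnt3a, with 68 reads, 2.68 times (2.07 to 3.42), and Wnt4, with 47 reads, 2.64 times (1.93 to 3.53). The Nsl1 windows there held 26 and 14 reads, 0.855 and 0.663 times. Wnt5a, Wnt7b, Wnt10b, Wnt7a and Wnt11 also reached 2 times in Msl1, with ratios of 2.39, 2.29, 2.24, 2.20 and 2.14, while their Nsl1 ratios were 1.33, 0.954, 0.890, 0.920 and 1.2. Wnt10b and Wnt7b have other annotated starts 889 and 1092 bases into the gene, inside this window, with Msl1 ratios of 2.01 and 2.46 around them. The other ligands lay between 0.799 at Wnt5b and 1.54 at Wnt6, with Wnt2 at 1.24 on 10 reads. At the most upstream start of Wnt5b the downstream Msl1 ratio was 2.24, and at that of Tcf7 it was 2.04, so that both would then pass 2 times. From 500 to 2000 bases before the TSS, Wnt2 held 34 Msl1 reads, 4.22 times the local level (2.89 to 5.98), and 31 Nsl1 reads, 2.37 times (1.60 to 3.39). Dkk1 held 27 Msl1 and 16 Nsl1 reads downstream, at 2.80 and 1.19, and Tcf3 59 and 22, at 2.25 and 0.839. Lrp5 and Lrp6 held 68 and 41 Msl1 reads, at 3.16 and 2.32, and 23 and 21 Nsl1 reads, at 1.02 and 1.11.

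The mean profiles differed by role in where their maximum lay. In bins of 200 bases the Msl1 maximum lay from 200 to 400 bases at the ligands (3.42 times the local level), from 600 to 800 bases at the receptors (6.25, or 5.66 without Fzd8) and from 400 to 600 bases at the intracellular components (3.74). Over all TSSs it lay from 200 to 400 bases, at 3.06. In Nsl1 the maximum lay from 0 to 200 bases at the receptors (2.86, or 2.61 without Fzd8) and all TSSs (3.20), and in the last 200 bases before the TSS at the intracellular components (3.47). The ligands had no Nsl1 maximum at the TSS, and their highest bin, 1.61, lay from -600 to -400 bases. In steps of 500 bases from -2000 to 5000, the fullest Msl1 step lay 500 bases or more downstream at 9 of 12 receptors (75%), 7 of 12 intracellular components (58.3%) and 3 of 14 ligands (21.4%), against 40.6% of all TSSs. The fullest Nsl1 step was within 500 bases of the TSS at 8 of 12 receptors (66.7%), 9 of 12 intracellular components (75%) and 3 of 14 ligands (21.4%), against 53.4% of all TSSs. Of these steps 9 of 14 lie 500 bases or more downstream.

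**Figure D3:**
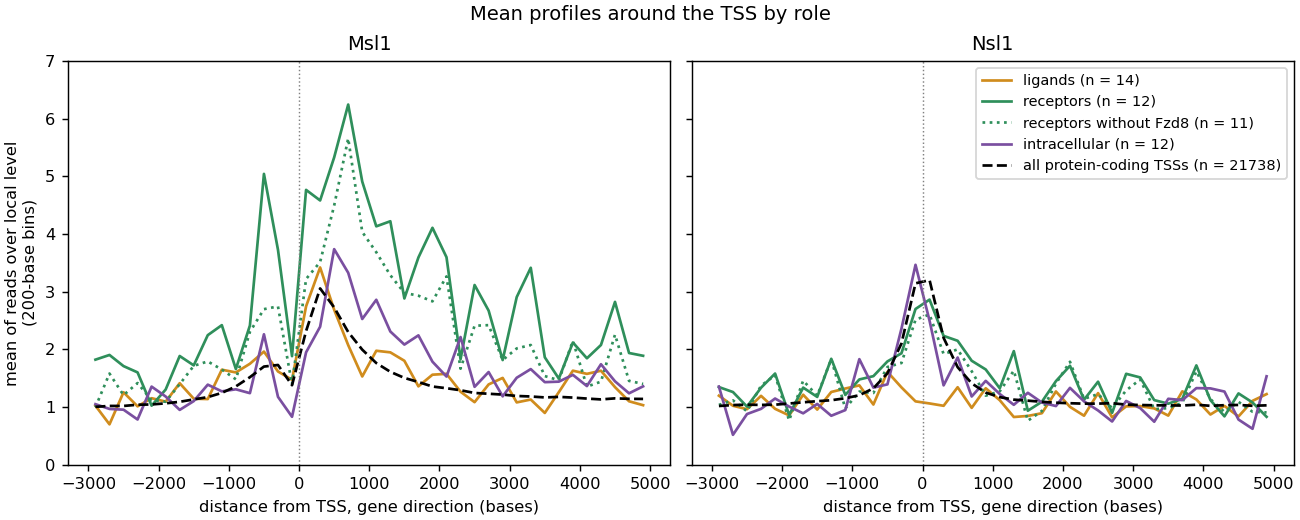
Mean of the reads over the local level in bins of 200 bases from 3 kb before to 5 kb after the TSS, in the direction of the gene, for Msl1 (left) and Nsl1 (right), by role and for all protein-coding TSSs; the dotted green line is the mean of the receptors without Fzd8. The Msl1 line of the receptors is highest from 600 to 800 bases and stays above that of all TSSs downstream, and the Nsl1 line of the ligands shows no maximum at the TSS.

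GC content of the downstream window moved with the downstream Msl1 reads. The members had a median GC content of 54.7% from 500 to 2000 bases, the Frizzled genes 61.0%, and all TSSs 46.0%. Among all TSSs with 60% to 70% in this window (628 TSSs) the median Msl1 ratio downstream was 3.07 and the Nsl1 ratio 1.32, and the 10 members in this class had 4.09 and 1.11. Fzd1, Fzd2, Fzd5, Fzd7, Fzd8, Axin2 and Lef1 lay above the median of this class in Msl1, and Wnt3a, Wnt7b and Wnt10b, with 2.68, 2.29 and 2.24, lay below it. Among TSSs with 30% to 50% the medians were 1.41 and 1.12, and the 13 members there had 2.22 and 1.15. Among TSSs with 50% to 60% they were 1.71 and 1.22, and the 17 members there had 2.20 and 1.15. The Msl1 median of the members was thus above that of TSSs of like GC content in each of the 3 classes, and the Nsl1 median was below it in 2 of them. The part of GC content, and of the kit that prepared each library, in the downstream Msl1 reads was not tested.

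**Figure D4:**
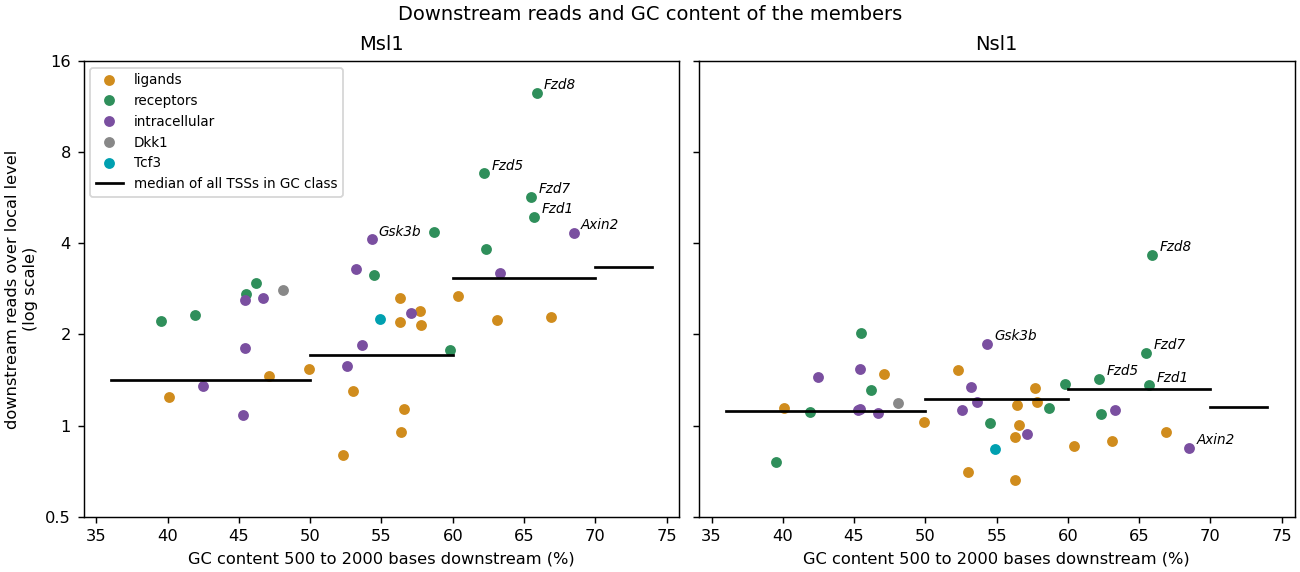
Reads over the local level (log scale) against the GC content of the window from 500 to 2000 bases downstream, for Msl1 (left) and Nsl1 (right); each point is 1 of the 40 genes coloured by role, and black bars are the medians of all protein-coding TSSs in classes of GC content. Fzd8, Fzd5, Fzd7, Fzd1 and Axin2 lie at high GC content and above the Msl1 bar of 3.07, while in Nsl1 Axin2 lies at 0.844.

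Within 2 kb of the TSS, the number of Msl1 reads per Nsl1 read, each per read of its library, had a median of 1.75 (1.36 to 1.98) at the members and 1.16 over the 19976 TSSs with enough reads. It was at least 1.5 times that median at 20 of 40 members, where 16.9% of all TSSs were, and at most the median over 1.5 at 1 member, Gsk3a, where 15.5% were. TSSs of high CpG content had a median of 1.41, and their share in the upper group was not computed. By GC content within 500 bases, members from 50% to 60% had a median of 1.34 against 1.07 for all TSSs of that class. From 60% to 70% the medians were 1.84 and 1.48, and above 70% they were 1.91 and 1.83. The part of GC content in this value was not tested. Ligands and receptors had 1.87 (1.34 to 2.08), with 14 of 26 in the upper group, and the intracellular components 1.46 (1.19 to 2.11), with 4 of 12, so the intervals overlapped again. The highest values were at Lef1, with 114 Msl1 and 46 Nsl1 reads and a value of 3.17 (2.23 to 4.56), and at Axin2, with 162 and 67 reads and a value of 3.09 (2.31 to 4.17). Fzd7 followed with 175 and 80 reads, 2.79 (2.13 to 3.69), and Fzd5 with 164 and 76 reads, 2.76 (2.09 to 3.67). This order depended on the setting. With the local level divided out, Fzd8 was highest at 3.25, Axin2 was at 3.14 and Lef1 at 2.46. With narrower windows Wnt4 was highest at 3.34 and Lef1 was at 2.71. Lef1 and Axin2 are both known targets of the pathway they serve, but targets were not compared with other genes in this value. Wnt4, Wnt10b and Wnt7b were the highest ligands, at 2.69 (1.94 to 3.77), 2.53 (1.8 to 3.60) and 2.28 (1.68 to 3.13). The lowest values were at Gsk3a, with 56 Msl1 and 98 Nsl1 reads and a value of 0.730 (0.516 to 1.02), Wnt1 with 0.989 (0.683 to 1.43) and Axin1 with 1.01 (0.745 to 1.37). The paralog pairs Axin1 and Axin2, and Gsk3a and Gsk3b (1.97, 1.5 to 2.61), thus had intervals that did not overlap, while those of Dvl1, Dvl2 and Dvl3 (1.24, 1.38 and 1.54) did.

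**Figure D5:**
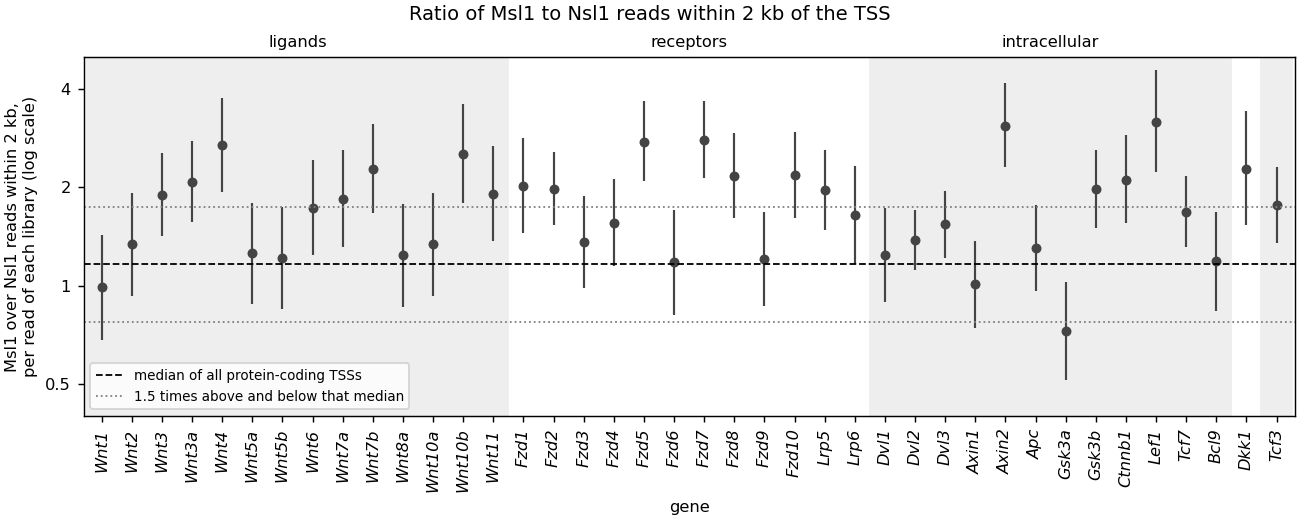
Msl1 reads per Nsl1 read within 2 kb of the TSS, each per read of its library, on a log scale, for the 40 genes by role; bars are 95% counting intervals, the dashed line is the median of all protein-coding TSSs (1.16), and the dotted lines lie 1.5 times above and below it. Lef1 and Axin2 are highest at 3.17 and 3.09, and Gsk3a, at 0.730, is the only gene below the lower line.

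Of 61 further Wnt pathway genes listed by role, 18 (29.5%) reached 3 times the local level within 500 bases in Msl1 and 7 (11.5%) in Nsl1, against 23.7% and 24.3% of all TSSs. Downstream 39 (63.9%) reached 2 times in Msl1 and 3 (4.92%) in Nsl1, against 32.2% and 4.86%. Their medians within 500 bases were 2.39 for Msl1 and 1.62 for Nsl1, and downstream 2.36 and 1.12, near those of the 40 members. In Msl1 the highest were Csnk1a1, the casein kinase that primes beta-catenin, with 93 reads, 7.10 times (5.69 to 8.77), and the co-repressors Tle1 and Tle3, with 5.31 and 4.94 times. The lowest were the co-repressor Tle4 with 0.907, Tcf7l2 with 0.994 and the ubiquitin ligase Znrf3 with 1.14. In Nsl1 the highest were Ppp2r1a, a subunit of the phosphatase PP2A, with 40 reads, 4.81 times (3.41 to 6.62), the tankyrase gene Tnks with 4.13 and Amer1 with 4.06. The lowest were Tle2 with 0.551, Cdx1 with 0.801 and the Dkk1 receptor gene Kremen2 with 0.833. By role, 3 times in Nsl1 was reached by 6 of 20 further intracellular genes and 1 of 11 ligand or secretion genes. It was reached by 0 of 15 receptor or membrane genes, 0 of 10 antagonists and 0 of 5 targets, against 24.3% of all TSSs. The order of these roles differed from that at the members. Downstream Msl1 had a median of 2.08 at receptor or membrane genes, where 9 of 15 reached 2 times. It was 2.58 at intracellular genes (14 of 20), 2.44 at antagonists (6 of 10) and 3.33 at targets (4 of 5). Ligand or secretion genes were lowest, with 6 of 11 at 2 times. In Nsl1 within 500 bases they had 1.71 and receptor or membrane genes 1.33, against 1.10 and 2.15 for member ligands and receptors.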

How the data were processed

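The Msl1 and the Nsl1 ChIP-seq library of wild-type mESCs were used, which is 1 for each antibody. According to the submitters' notes the authors used CASAVA 1.8.2 and Bowtie 0.12.7 on mm9, and the methods state that unique reads were kept. The deposited files list every aligned read with its position, strand and a score. This score, as the authors deposited it, is 255 on every line and was not used.

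One read was kept per position and strand, so that 18.3% of the nuclear Msl1 and 4.56% of the Nsl1 reads were dropped. Reads were shifted by 102 bases (Msl1) and 67 bases (Nsl1), which are taken from strand cross-correlations of 205 and 135 bases. Counts were made with Python 3.11.15, numpy 2.4.6 and scipy 1.17.1, and plots with matplotlib 3.10.9. Windows were divided by the local level of the same library, and no Input was used here. The TSS of a gene was the start shared by most complete protein-coding transcripts of GENCODE on mm9, another release than the study's. Ties went to the CCDS transcript, then the longest, a rule completed after first counts had been seen. TSSs needed 45 kb of known sequence and 90 reads in the local level, and 50 reads for the value between libraries. The counting was tested on simulated reads.

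The members and lists were chosen with earlier results of these data known. Every member is named. Of other pathway genes, the 3 highest and 3 lowest in each library and Tcf7l1 are named. Promoters are printed for the extremes of these values. That of the gene with the highest Msl1 ratio is not reported here. With 1 library per antibody there was no test and no p-value. Alternatives were all reads kept, other windows, the local level from 10 to 100 kb or without promoters, the most upstream start, a shift of 100 bases, Tcf3 or Tcf7l1 among the intracellular components and, added after seeing the data, the genome level, the local level divided out of Msl1 per Nsl1 reads, and leaving out Fzd8.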

Additional observations from a re-analysis of the deposited data

How the results depend on the processing

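Of 125 alternative values computed for 16 results, 105 stayed within their limits and 20 moved. A value counted as within its limits could still differ. The 27 members at 2 times downstream in Msl1 were 36 with the genome level and 21 with narrower or farther windows. The Msl1 median of the intracellular components within 500 bases, 2.03, was 1.59 with narrower windows. It was above the 1.87 of all TSSs in the main setting and below their 1.65 with narrower windows. The background mattered most. With the mean level of the genome in place of the local level, which was tried after seeing the data, 27 members reached 3 times within 500 bases in Msl1 and 11 in Nsl1 (43.1% and 33.2% of all TSSs), and 9 reached 2 times downstream in Nsl1 (17% of all TSSs). The medians of ligands and receptors then were 3.81 (Msl1) and 2.01 (Nsl1) within 500 bases and 3.41 and 1.58 downstream, and those of the intracellular components 3.22 and 3.08 within 500 bases and 4.82 and 1.99 downstream. With narrower or farther windows, the Msl1 median of ligands and receptors within 500 bases was 2.17, the downstream Nsl1 median of the intracellular components was 1.09, 1 member reached 2 times downstream in Nsl1, and 2 members lay 1.5 times below the median in Msl1 per Nsl1 reads. A shift of 100 bases in both libraries, or leaving out Fzd8, also left 1 member at 2 times downstream in Nsl1. With all reads kept, 0 members lay 1.5 times below the median in Msl1 per Nsl1 reads. With the local level divided out, chosen after seeing the data, 2 did. The median of the intracellular components was then 1.17 (1.09 to 1.62) and that of all TSSs 1.08, against 1.46 and 1.16 in the main setting. The windows within 500 bases hold 9 to 109 reads, so ratios below about 2 there are often not separable from the local level at this depth. No paired analysis was possible because each antibody has 1 library and no test was made.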
